A study of Mus musculus with 52 samples.

Results

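The 32 genes described here encode the enzymes that feed fuel into the mitochondrial citric acid cycle, run the cycle and break down fatty acids. They are the genes of the deposited count table whose Ensembl identifier maps to a listed symbol, 32 of 55487 genes in all. The rule used symbols and no measured value, but the list was chosen with earlier results of these data known. By role they hold 3 genes of pyruvate dehydrogenase, 12 of the cycle itself, 2 of fatty acid activation and entry, 4 acyl-CoA dehydrogenases, 5 of the later steps of fat breakdown, 3 auxiliaries for unsaturated fatty acids and 3 of the electron transfer flavoprotein route. They lie on 17 chromosomes, and all 32 passed the filter on low counts.

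The study sequenced ribosome-depleted total RNA of the gastrocnemius, the large calf muscle, of male C57BL/6 mice aged 22 to 24 months. It held 52 libraries in 13 groups of 4. In group names, HU marks muscle taken at the end of hindlimb unloading, RL7 marks 7 d and RL14 marks 14 d of renewed weight bearing after it. The ending gives what was dissolved in the drinking water, metformin (M), leucine (L), the pair (ML) or nothing (W). AMB_W is the ambulatory group on water, which was never unloaded. No ambulatory group received metformin or leucine, so an effect of a drink without unloading cannot be told apart from one that needs it. Doses and the length of unloading are not given in the sources used here. Libraries carry the number of their title, so that RL7_M 4 is number 4 of the metformin group after 7 d of reloading. Values stand in the order of these numbers, which are 2 to 5 in AMB_W, 1, 2, 3 and 5 in HU_L and RL7_L, 1, 4, 5 and 6 in HU_ML, 1, 3, 4 and 6 in RL7_ML and RL14_ML, 1, 2, 5 and 6 in RL14_M, 1, 2, 4 and 5 in RL14_L, 1, 3, 4 and 5 in RL14_W and 1 to 4 elsewhere. The labels do not say that each library was a separate mouse, and p-values measure the spread between these libraries.

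Pyruvate dehydrogenase turns pyruvate from glycolysis into acetyl-CoA, and fat oxidation in the mitochondrial matrix yields acetyl-CoA from fatty acids. Citrate synthase joins acetyl-CoA to oxaloacetate, and the cycle then releases carbon dioxide and loads electron carriers for the respiratory chain. In muscle this capacity is highest in slow and oxidative fast fibres, falls with disuse in many settings and is under the control of nuclear receptors and the coactivator gene Ppargc1a. Metformin is known to inhibit respiratory complex I, and leucine to stimulate protein synthesis.

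Totals ran from 15605044 to 32492548 counts per library, of which the 32 genes took 0.297% to 0.643% (median 0.433%). Levels below are CPM, counts scaled to a common library size with TMM factors, and differences are log2 fold changes with their standard error (SE). A gene is said to have risen or fallen where the adjusted p of edgeR's quasi-likelihood test, corrected by Benjamini-Hochberg over 16668 genes, was under 0.05. Muscle markers were at the levels of this tissue: Ttn, the giant sarcomere protein, averaged 193334 CPM and Ckm, muscle creatine kinase, 8160 CPM. The liver gene Alb was above 16 CPM in 12 libraries spread over several groups. RL14_ML 1 and RL14_ML 6 stood apart from their group, with 11.4% and 29.2% of counts from mitochondrial genes. For the 32 genes, the larger changes in the calls when such libraries were left out are given below. In whole muscle, fewer cells of a type and less RNA per cell cannot be told apart.

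The promoters of 4 genes are shown, because their genes carried the results below: Cs and Mdh2 rose most often on reloading, and Idh3b and Acadl fell in RL7_L against HU_L and rose in RL14_M against RL7_M. Each runs from 250 bases before to 50 after the start of transcription in RefSeq on GRCm38.p6, 5′ to 3′ on the gene's strand. Capitals mark matches, on either strand, to the GC box GGGCGG or to the ETS core CCGGAAG. Cs lies on chr10:128337477-128337776 (+), Mdh2 on chr5:135778399-135778698 (+), Idh3b on chr2:130284402-130284701 (−) and Acadl on chr1:66863260-66863559 (−).
Cs: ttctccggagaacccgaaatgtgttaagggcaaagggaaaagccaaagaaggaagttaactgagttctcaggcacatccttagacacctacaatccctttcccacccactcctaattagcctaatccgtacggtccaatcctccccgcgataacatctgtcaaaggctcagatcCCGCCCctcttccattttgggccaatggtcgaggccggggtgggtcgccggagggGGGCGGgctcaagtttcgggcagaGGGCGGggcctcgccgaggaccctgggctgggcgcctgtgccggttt
Mdh2: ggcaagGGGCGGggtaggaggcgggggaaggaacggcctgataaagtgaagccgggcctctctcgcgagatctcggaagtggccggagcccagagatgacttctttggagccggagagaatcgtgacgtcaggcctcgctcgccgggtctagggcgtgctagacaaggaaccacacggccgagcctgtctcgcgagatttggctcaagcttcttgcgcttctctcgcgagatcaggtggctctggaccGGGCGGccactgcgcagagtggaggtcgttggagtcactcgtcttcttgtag
Idh3b: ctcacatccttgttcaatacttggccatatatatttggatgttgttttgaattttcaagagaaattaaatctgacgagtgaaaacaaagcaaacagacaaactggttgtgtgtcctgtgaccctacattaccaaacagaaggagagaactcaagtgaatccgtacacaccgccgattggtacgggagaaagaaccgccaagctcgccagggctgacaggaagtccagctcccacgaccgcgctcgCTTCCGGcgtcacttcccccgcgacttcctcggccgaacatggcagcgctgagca
Acadl: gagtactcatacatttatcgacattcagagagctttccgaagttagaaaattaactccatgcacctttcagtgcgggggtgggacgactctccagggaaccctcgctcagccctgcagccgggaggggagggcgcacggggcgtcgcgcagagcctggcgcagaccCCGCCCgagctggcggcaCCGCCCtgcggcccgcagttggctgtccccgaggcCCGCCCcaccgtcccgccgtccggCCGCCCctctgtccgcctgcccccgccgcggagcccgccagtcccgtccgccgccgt
The GC box stood in 22 of the 29 member promoters found in RefSeq (75.9%), against 35.7% of 32851 promoters of all genes. The ETS core stood in 4 (13.8%: Cpt2, Dlst, Idh3b and Idh3g), against 8.86% of all. The extended nuclear receptor element AAGGTCA stood in 2 (6.9%: Acadm and Ogdh), against 4.72% of all, and in none of the promoters printed. Such a match describes letters and not binding. The members were counted by gene and the background by promoter entry. The background was also not limited to genes that passed the filter on low counts, so the 2 shares are of unlike sets.

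Per kilobase of exon, the most abundant member over the 52 libraries was Ogdh, the catalytic subunit of oxoglutarate dehydrogenase, at 118 CPM per kb. Pdha1, the catalytic subunit of pyruvate dehydrogenase, followed at 97.0 CPM per kb, and then Acadl, the long-chain acyl-CoA dehydrogenase, at 80.4 CPM per kb. At the low end stood Eci2, an enoyl-CoA isomerase, at 4.04 CPM per kb and Echs1, the short-chain enoyl-CoA hydratase, at 2.52 CPM per kb. The group mean was lowest in HU_M for 16 of the 32 genes, and highest in RL14_M for 16 and in RL7_ML for 11.

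**Figure D1:**
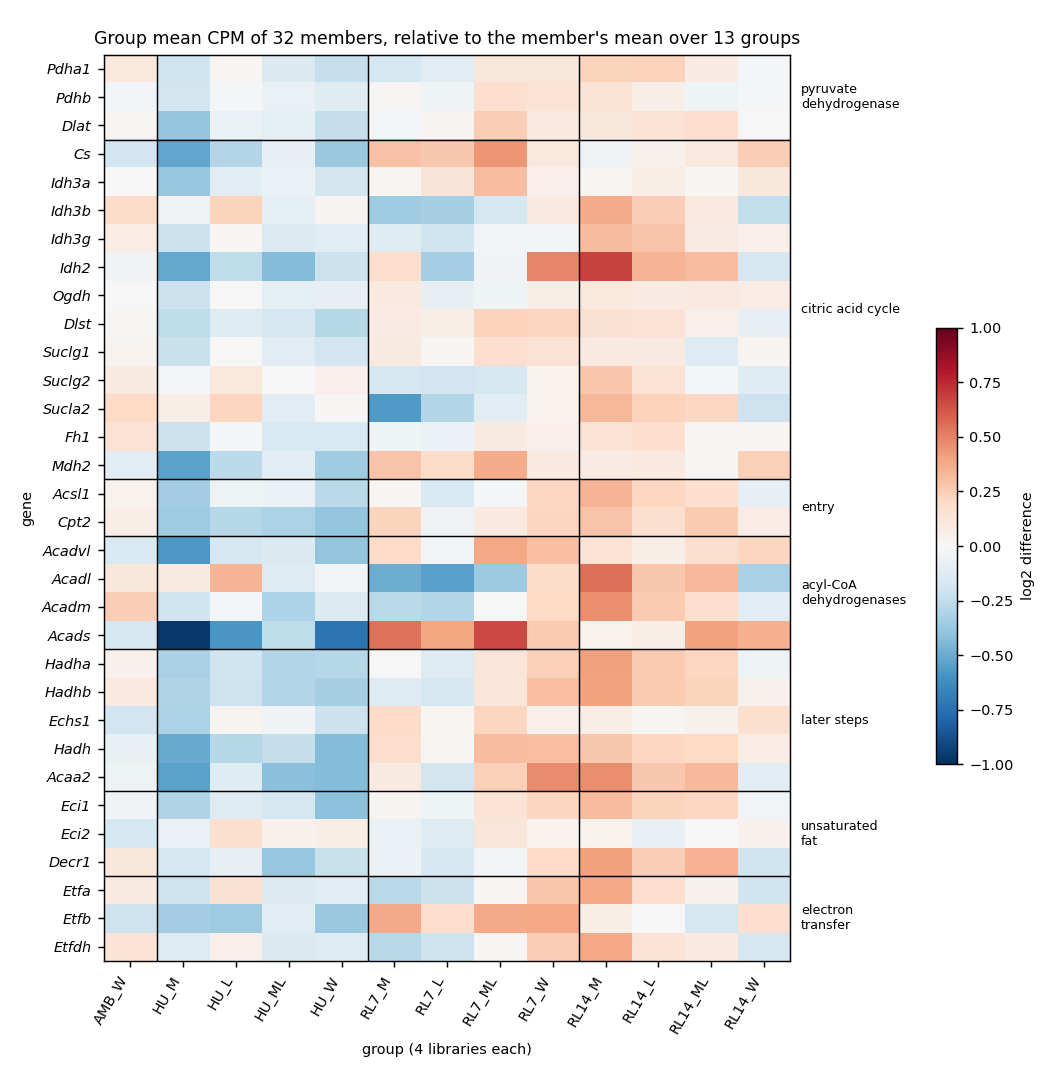
Group means of the 32 genes, grouped by role, as log2 CPM relative to the gene's mean over the 13 groups; columns are groups and colour gives the difference in log2 units. The unloaded columns are low for most genes, and the reloaded columns differ by gene: Cs, Mdh2 and Acads are high at 7 d of reloading on metformin, leucine or both, where Idh3b, Acadl and Sucla2 are low. The column of RL14_W, on water, goes the same way for these genes.

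Within groups, libraries differed most in Idh2, the NADP-dependent isocitrate dehydrogenase, whose SD was 0.73 on the log2 scale. It ran from 27.8 CPM in HU_M 3 to 285.5 CPM in RL14_ML 3. The steadiest genes were Idh3g, a regulatory subunit of the NAD-dependent isocitrate dehydrogenase, with an SD of 0.16, and Ogdh with 0.17. Most fat genes moved together from library to library: after group means were removed, Eci1 followed the mean of the other 31 genes with r = 0.970, and Hadha and Hadhb, the subunits of the trifunctional protein, with 0.959 and 0.954. Sucla2, the ADP-forming subunit of succinyl-CoA ligase, did so with only 0.319 and Cs with 0.402, over 52 libraries that share the scaling.

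Fibre type genes ran with part of this spread. Over the 52 libraries, with group means removed, Idh2 and Myh2, the myosin of oxidative fast fibres, had Pearson's r = 0.890 and Spearman's rho = 0.910, with adjusted permutation p = 2.9e-05 and 2.5e-05. These rest on the smallest p that 100000 permutations can give, adjusted over 20 relations of 5 members with 4 myosin genes that were chosen after their values were seen. Without the 2 libraries farthest out in Myh2, r was 0.910. Acadl and Myh2 had r = 0.708 and rho = 0.807 (adjusted p = 2.9e-05 and 2.5e-05), and 0.810 without those 2 libraries. This was not particular to Myh2. With the myosin genes Myh1 and Myh7, r was 0.851 and 0.804 for Idh2, and 0.763 and 0.542 for Acadl. Against Myh4, the myosin of the fastest fibres, Idh2 ran the other way, with r = -0.53 (adjusted p = 0.00158), rho = -0.51 and -0.51 without the 2 farthest libraries. Cs and Myh2 had r = 0.239 (adjusted p = 0.298) and rho = 0.478 (adjusted p = 0.00468), and Sucla2 and Myh2 had r = 0.227 (adjusted p = 0.319) and rho = 0.129 (adjusted p = 0.481).

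**Figure D2:**
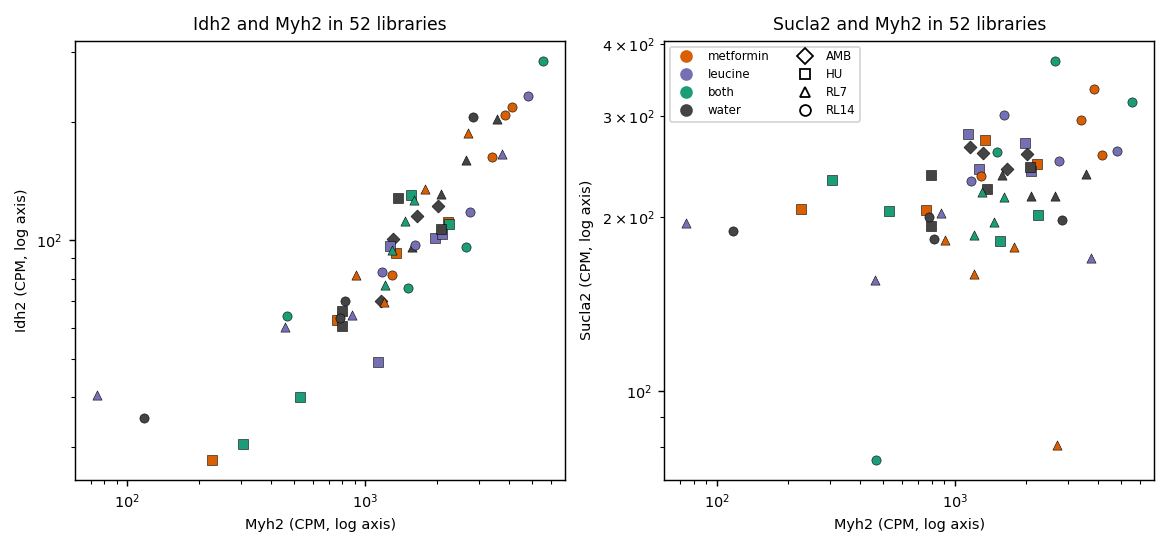
Idh2 and Sucla2 (CPM, log axis) against Myh2 (CPM, log axis) in the 52 libraries, coloured by drink, with the marker shape giving the time. Idh2 climbs with Myh2 (r = 0.890 after group means were removed), and Sucla2 shows no such line (r = 0.227).

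Unloading was first set against the ambulatory baseline, to show where the genes stood before reloading. In HU_W against AMB_W, 0 of the 32 genes were called by edgeR, where 2.78% of all genes tested were, and 4 had an unadjusted p under 0.05, where 13.7% of genes did. Even so 31 of the 32 had a negative log2 fold change, against 51.3% of all genes, with a median of -0.25 for the members and -0.01 for all. The lowest was Acads, the short-chain acyl-CoA dehydrogenase, at -0.55 (SE 0.34), with 9.76, 6.62, 6.51 and 5.78 CPM in HU_W and 7.69, 12.2, 11.8 and 10.4 CPM in AMB_W. Cpt2, which hands fatty acyl groups to coenzyme A inside the matrix, was at 16.6 ± 2.83 CPM in HU_W and 22.9 ± 2.03 CPM in AMB_W (SD, n = 4 each), a log2 fold change of -0.46. Hadhb was at -0.43. Eci2 alone was positive, at 0.23. Because the genes of a library move together, a shared sign is not a count of 31 separate results.

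The drinks did not bring a call in unloaded muscle either. In HU_M against AMB_W, 0 of 32 genes were called, against 3.62% of all genes, and 11 had an unadjusted p under 0.05, where 16% of genes did. Acads was lowest, at -0.80 (SE 0.34; adjusted p = 0.218). Without HU_M 1 the count was 1. HU_L against AMB_W and HU_ML against AMB_W likewise gave 0 calls, against 3.74% and 2.07% of all genes, with 1 and 3 genes at an unadjusted p under 0.05 and medians of -0.09 and -0.18. DESeq2 called 0 in all 4 of these comparisons. Between drinks and water during unloading, HU_M, HU_L and HU_ML against HU_W gave 0 calls each, and 0 genes with an unadjusted p under 0.05, where 0%, 0.006% and 0.048% of all genes were called and 3.88%, 2.99% and 6.23% had such a p. In HU_L against HU_W, 31 of the 32 log2 fold changes were positive, with a median of 0.15, against 52.3% of all genes. The highest was Acadl at 0.37 (SE 0.26), with an adjusted p of 1.00.

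Reloading on water was then set against unloading on water. After 7 d, 4 genes rose and 0 fell in RL7_W against HU_W: Hadh, which oxidises hydroxyacyl-CoA, Etfb, a subunit of the electron transfer flavoprotein, Eci1, and Dlst, the transferase subunit of oxoglutarate dehydrogenase. That is 12.5% of the members, where 4.88% of all genes were called, 1.97% of them higher and 2.9% lower. All but Dlst serve fat oxidation. Dlst was at 157, 193, 152 and 158 CPM in RL7_W and 134, 115, 122 and 97.2 CPM in HU_W, with every reloaded library above every unloaded library. Its log2 fold change was 0.50 (SE 0.13; adjusted p = 0.0167). Hadh was at 78.0, 99.0, 64.2 and 70.7 CPM in RL7_W and 54.5, 39.3, 51.1 and 42.7 CPM in HU_W, without overlap, a log2 fold change of 0.73 (SE 0.19; adjusted p = 0.0179). Eci1 averaged 36.4 ± 5.90 CPM in RL7_W and 23.7 ± 3.74 CPM in HU_W (0.62, SE 0.19; adjusted p = 0.0392). Etfb averaged 14.6 ± 2.42 CPM in RL7_W and 8.64 ± 2.64 CPM in HU_W (0.76, SE 0.23; adjusted p = 0.0450). Etfb shares 58.2% of its exon bases with genes on the same strand, so its counts are uncertain. In all, 30 of the 32 genes had a positive log2 fold change, with a median of 0.38 against 0.03 over all genes, and Cs (0.48), Mdh2 (0.45), Cpt2 (0.61) and Acads (0.99) missed the threshold with adjusted p between 0.0608 and 0.0771. The count rests on few libraries: without HU_W 2, HU_W 4 or RL7_W 2 it was 0, without HU_W 3, RL7_W 1 or RL7_W 4 it was 2, and without HU_W 1 it was 8. Calls over all genes fell as well, from 813 to 410, 593 and 408 without HU_W 2, HU_W 4 and RL7_W 2. They were 525, 473 and 776 without HU_W 3, RL7_W 1 and RL7_W 4, and 796 without HU_W 1. The highest adjusted p of Dlst and Hadh was 0.121 and 0.127, and leaving out the libraries high in Alb gave 0 calls.

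After 14 d on water 3 genes rose in RL14_W against HU_W and 0 fell, 9.38% of the members, where 9.72% of all genes were called, 5.5% higher and 4.22% lower. The genes were Mdh2, the mitochondrial malate dehydrogenase, Cs, citrate synthase, and Acads. Cs was at 442, 396, 380.4 and 331 CPM in RL14_W and 299, 229.6, 249.7 and 231 CPM in HU_W, without overlap (0.62, SE 0.16; adjusted p = 0.0125). Mdh2 was at 318, 265, 268 and 231 CPM in RL14_W and 216, 162, 185 and 156 CPM in HU_W, also without overlap (0.59, SE 0.15; adjusted p = 0.0109). Acads was at 23.5, 15.6, 12.7 and 9.03 CPM in RL14_W and 9.76, 6.62, 6.51 and 5.78 CPM in HU_W (1.08, SE 0.34; adjusted p = 0.0356), and its lowest reloaded library lay below the highest unloaded library. Without HU_W 2 or RL14_W 1 none of the 3 was called (highest adjusted p of Cs 0.0585, of Mdh2 0.0631, of Acads 0.181). Calls over all genes fell as well, from 1620 to 577 without HU_W 2 and to 747 without RL14_W 1. Acads also lost its call without HU_W 3, HU_W 4, RL14_W 3 or RL14_W 4, and with an offset for GC content (adjusted p = 0.123). Both comparisons use the HU_W libraries.

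Set against the ambulatory baseline, the reloaded water groups gave 0 calls. RL7_W against AMB_W had 0% of all genes called and 1 member with an unadjusted p under 0.05, where 8.05% of genes had one. RL14_W against AMB_W had 0.174% called and 3 such members, where 17.9% of genes had one, with Acads highest at 0.53, Cs at 0.43 (adjusted p = 0.157) and Acadl lowest at -0.44. RL14_W against RL7_W gave 0 calls, against 0.036% of all genes, and 4 members with an unadjusted p under 0.05, where 11.4% had one. DESeq2 called 0 members in these 3 comparisons as well.

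The metformin groups gave the most calls. In RL7_M against HU_M, 11 genes rose and 1 fell, 37.5% of the members, where 29.6% of all genes were called, 15.4% higher and 14.2% lower. The share called stands near this high background. The risers covered both branches of the pathway: Cs, Mdh2, Idh3a, Dlst and Dlat of the cycle and pyruvate entry, and Acads, Acadvl, Hadh, Echs1, Cpt2 and Etfb of fat oxidation. Sucla2 fell. The median log2 fold change was 0.32, against 0.05 over all genes, and 25 of the 32 were positive.

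Mdh2 was at 266, 268, 295 and 290.1 CPM in RL7_M and 193, 189.6, 129 and 124 CPM in HU_M, with a wide gap between the groups (0.82, SE 0.15; adjusted p = 0.000126). Cs was at 391.6, 389, 438 and 379.9 CPM in RL7_M and 259.6, 262, 199 and 194 CPM in HU_M, again without overlap (0.81, SE 0.16; adjusted p = 0.000314). Acads was at 14.96, 14.5, 19.8 and 19.96 CPM in RL7_M and 8.32, 7.85, 2.74 and 5.46 CPM in HU_M, without overlap and the steepest rise of the 12 (1.51, SE 0.34; adjusted p = 0.00117). These 3 were called in each of the 8 fits that left out 1 library, with adjusted p up to 0.00196 for Mdh2, 0.00316 for Cs and 0.00928 for Acads.

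Sucla2 was at 183, 159, 178 and 80.4 CPM in RL7_M and 247, 272, 207 and 206 CPM in HU_M, without overlap (-0.64, SE 0.22; adjusted p = 0.0250). Its lowest value by far was in RL7_M 4, without which the adjusted p was 0.123, and without HU_M 2 it was 0.0785. With the GC offset it was 0.0968. The other beta subunit gene of the ligase, Suclg2, was not called, and nor was the shared alpha subunit gene Suclg1 (0.31; adjusted p = 0.0523).

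The other 8 risers lay closer to the threshold. Hadh averaged 71.4 CPM in RL7_M and 44.5 CPM in HU_M (0.68; adjusted p = 0.00728), and lost its call only without HU_M 3 (0.0506). Etfb averaged 14.5 CPM in RL7_M and 8.76 CPM in HU_M (0.73; adjusted p = 0.0147), and lost its call without HU_M 3 or RL7_M 4 (highest adjusted p 0.0842). Acadvl, the very long-chain dehydrogenase, averaged 81.8 CPM in RL7_M and 48.04 CPM in HU_M (0.77; adjusted p = 0.0198), and lost it without HU_M 3, HU_M 4 or RL7_M 3 (highest 0.0795). Acadvl shares 42.9% of its exon bases with Dvl2 on the opposite strand, and the strand setting of the counting is not given in the sources used here. Cpt2 (0.58; adjusted p = 0.0235) and Echs1 (0.51; adjusted p = 0.0303) lost it without HU_M 3, HU_M 4, RL7_M 3 or RL7_M 4 (highest 0.183 and 0.158). Idh3a, the catalytic subunit of the NAD-dependent enzyme (0.39; adjusted p = 0.0253), and Dlat, the transferase of pyruvate dehydrogenase (0.37; adjusted p = 0.0376), lost it without HU_M 3, HU_M 4, RL7_M 1, RL7_M 2 or RL7_M 3 (highest 0.154 and 0.217). Dlst (0.33; adjusted p = 0.0482) lost it in 6 of the 8 such fits, without HU_M 3, HU_M 4 or any of the RL7_M libraries (highest 0.256). As a whole, the count was 5 without HU_M 3, 6 without HU_M 4 or RL7_M 3 and 7 without RL7_M 4. Calls over all genes fell as well, from 4930 to 4004, 3928, 4247 and 3516 without HU_M 3, HU_M 4, RL7_M 3 and RL7_M 4.

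**Figure D3:**
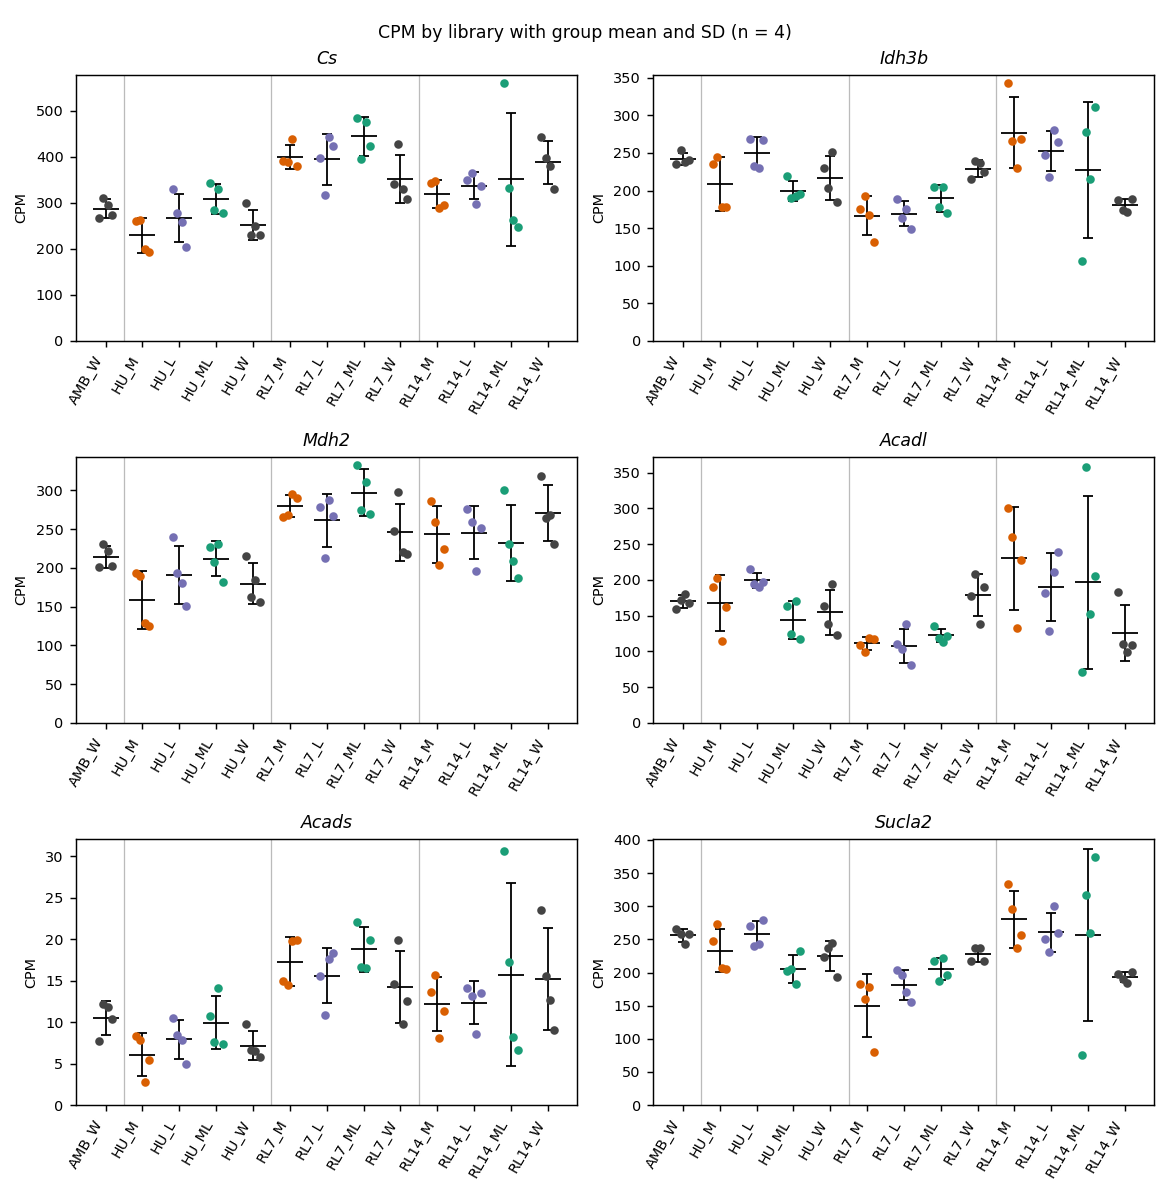
CPM of Cs, Idh3b, Mdh2, Acadl, Acads and Sucla2 in each library (points), with the group mean and SD (bars), for the 13 groups. Cs, Mdh2 and Acads show no overlap between RL7_M and HU_M, and Cs averages 399.8 CPM in RL7_M but 318 CPM in RL14_M, while Idh3b, Acadl and Sucla2 are low in RL7_M and RL7_L and high in RL14_M. Their means are low in RL14_W too, on water, where those of Cs, Mdh2 and Acads are high.

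On leucine, 3 genes rose and 2 fell in RL7_L against HU_L, 15.6% of the members, where 28.6% of all genes were called, 14.7% higher and 13.9% lower. Cs, Mdh2 and Acads rose here too. Idh3b, a regulatory subunit of the NAD-dependent isocitrate dehydrogenase, and Acadl fell. The median over the 32 genes was -0.04, against 0.07 over all genes. Idh3b was at 189, 163, 176 and 149 CPM in RL7_L and 269, 233, 229.8 and 267 CPM in HU_L, without overlap (-0.56, SE 0.16; adjusted p = 0.00993), and was called in all 8 fits that left out 1 library (highest adjusted p 0.0440). Acadl was at 110.3, 104, 138 and 80.2 CPM in RL7_L and 215, 194, 191 and 196 CPM in HU_L, without overlap (-0.88, SE 0.26; adjusted p = 0.0111), and lost its call without RL7_L 5 (adjusted p = 0.0548). With the level of 5.8S ribosomal RNA as a covariate the log2 fold changes were 0.03 for Idh3b and -0.02 for Acadl (adjusted p = 0.996 and 0.998), and without the libraries high in Alb the adjusted p was 0.278 and 0.256.

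Cs was at 397, 316, 442 and 422 CPM in RL7_L and 329, 278, 258 and 203 CPM in HU_L, where the lowest reloaded library lay inside the unloaded range (0.56, SE 0.16; adjusted p = 0.00805). Mdh2 averaged 261 ± 33.9 CPM in RL7_L and 191 ± 37.2 CPM in HU_L (0.45; adjusted p = 0.0213), and Acads 15.6 ± 3.34 CPM in RL7_L and 7.92 ± 2.30 CPM in HU_L (0.97; adjusted p = 0.0272). Without HU_L 5 only 2 of the 5 were called, with Cs at an adjusted p of 0.0577, Mdh2 at 0.116 and Acads at 0.113. Without RL7_L 5 the count was also 2, and without HU_L 3 or RL7_L 3 it was 3. Calls over all genes fell as well, from 4771 to 2772 without HU_L 5 and to 3004 without RL7_L 5. They were 3966 without HU_L 3 and 4173 without RL7_L 3. Mdh2 lost its call without RL7_L 1 as well (0.0519), and leaving out the libraries high in Alb gave 0 calls.

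On both drinks, 2 genes rose and 0 fell in RL7_ML against HU_ML, 6.25% of the members, where 5.91% of all genes were called, 2.69% higher and 3.22% lower. They were again Cs and Mdh2. Cs was at 484, 396, 476 and 423 CPM in RL7_ML and 342, 285, 330.2 and 277 CPM in HU_ML, without overlap (0.53, SE 0.16; adjusted p = 0.0395). Mdh2 was at 333, 275, 311 and 269.5 CPM in RL7_ML and 227, 208, 231 and 182 CPM in HU_ML, without overlap (0.49, SE 0.15; adjusted p = 0.0428). Both lost their call without any library but HU_ML 5 (highest adjusted p 0.144 for Cs and 0.168 for Mdh2), and when the libraries high in Alb were left out. In the fits that left out 1 of these libraries, calls over all genes fell from 985 to between 359 (without HU_ML 4) and 751 (without HU_ML 1). Over the 4 drinks, then, Cs and Mdh2 had log2 fold changes between 0.45 and 0.82 after 7 d. They were called in 3 of 4, while on water they missed the threshold.

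**Figure D4:**
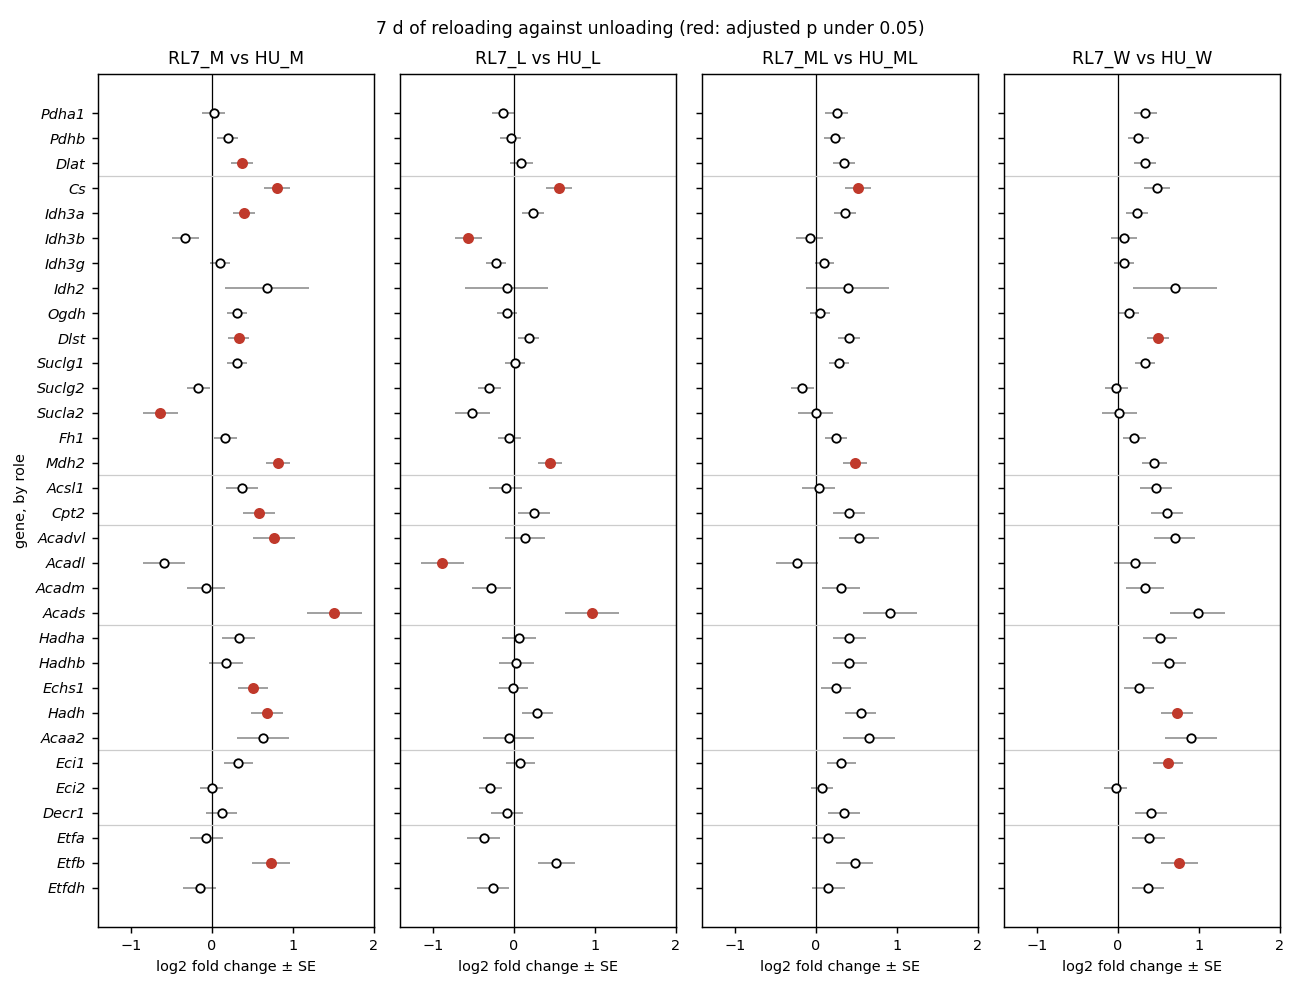
Log2 fold changes of the 32 genes after 7 d of reloading against unloading, with SE bars, in a panel each for metformin, leucine, both and water; red marks genes with an adjusted p under 0.05. Cs and Mdh2 lie between 0.45 and 0.82 in every panel, while Idh3b, Acadl and Sucla2 lie between -0.88 and -0.32 on metformin and leucine, between -0.23 and -0.00128 on both (none called), and between 0.02 and 0.21 on water.

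Between 7 and 14 d of reloading another set of genes rose on metformin. In RL14_M against RL7_M, 8 genes rose and 0 fell, 25% of the members, where 11.8% of all genes were called, 5.62% higher and 6.2% lower. The RL7_M libraries are those of the comparison with HU_M. Idh3b, Idh3g, Sucla2 and Suclg2 belong to the cycle, Acadl and Acadm, the medium-chain dehydrogenase, open the fat spiral, and Etfa and Etfdh pass its electrons to the respiratory chain. Idh3b was at 343, 265, 229.8 and 269 CPM in RL14_M and 176, 193, 168 and 131 CPM in RL7_M (0.73, SE 0.17; adjusted p = 0.00583). Sucla2 was at 334, 295, 236 and 256 CPM in RL14_M and 183, 159, 178 and 80.4 CPM in RL7_M (0.90, SE 0.22; adjusted p = 0.0102). Acadl was at 301, 260.2, 132 and 227 CPM in RL14_M and 109, 98.9, 119 and 118 CPM in RL7_M (1.05, SE 0.26; adjusted p = 0.0115). None of the 3 pairs of groups overlapped, and RL14_M 5 was lowest of its group in each.

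Etfdh averaged 103 CPM in RL14_M and 65.2 CPM in RL7_M (0.66; adjusted p = 0.0272), and Etfa 76.4 CPM in RL14_M and 48.3 CPM in RL7_M (0.66; adjusted p = 0.0302). Acadm averaged 195 CPM in RL14_M and 117 CPM in RL7_M (0.73; adjusted p = 0.0394). The groups overlapped in Etfdh, Etfa and Acadm. Idh3g (0.44; adjusted p = 0.0175) and Suclg2 (0.45; adjusted p = 0.0307) had smaller rises. Cs was not called, at 318 CPM in RL14_M and 399.8 CPM in RL7_M (-0.33; adjusted p = 0.161). Idh3b and Sucla2 stayed called in all 8 fits that left out 1 library (highest adjusted p 0.0343 and 0.0446). Without RL14_M 1 only those 2 were called, with Acadl at 0.050007, Idh3g at 0.0690 and Acadm at 0.124, and without RL7_M 4 the count was 4. Calls over all genes fell as well, from 1969 to 661 without RL14_M 1 and to 791 without RL7_M 4. Acadm also lost its call without RL7_M 2, RL14_M 2 or RL14_M 6, and Etfa without RL14_M 6 (highest adjusted p in these fits 0.0744). Leaving out the libraries high in Alb gave 2 calls, Idh3b and Sucla2.

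On leucine only Idh3g rose in RL14_L against RL7_L, 3.13% of the members, where 1.33% of all genes were called, 0.708% higher and 0.618% lower. It was at 167, 149, 141 and 153 CPM in RL14_L and 123, 105, 116 and 91.6 CPM in RL7_L, without overlap (0.49, SE 0.12; adjusted p = 0.0328). Idh3b (0.58; adjusted p = 0.0568) and Acadl (0.81; adjusted p = 0.0850) missed the threshold. Idh3g lost its call without RL7_L 5, RL14_L 1, RL14_L 4 or RL14_L 5 (highest 0.166), the count was 3 without RL14_L 2, and it was 0 without the libraries high in Alb. Calls over all genes fell as well, from 221 to 19, 194, 10 and 55 without RL7_L 5, RL14_L 1, RL14_L 4 and RL14_L 5. They were 486 without RL14_L 2. RL14_ML against RL7_ML gave 0 calls, against 1.88% of all genes, and 6 genes with an unadjusted p under 0.05, where 13.9% had one. Without RL14_ML 1, which stood apart, it gave 7, but the calls over all genes then rose as well, from 314 to 3059.

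At 14 d the metformin group was also set against water. In RL14_M against RL14_W, Idh3b and Acadl rose and 0 genes fell, 6.25% of the members, where 5.12% of all genes were called, 1.54% higher and 3.58% lower. Idh3b was at 343, 265, 229.8 and 269 CPM in RL14_M and 187, 175, 171 and 188 CPM in RL14_W, without overlap (0.62, SE 0.16; adjusted p = 0.0248). Acadl was at 301, 260.2, 132 and 227 CPM in RL14_M and 184, 109.8, 99.7 and 109 CPM in RL14_W, with overlap (0.87, SE 0.26; adjusted p = 0.0421). The lone high water library, RL14_W 1, makes that overlap. Without RL14_W 3, RL14_W 4, RL14_M 1 or RL14_M 6 neither gene was called (highest adjusted p 0.0963 for Idh3b and 0.146 for Acadl), without RL14_W 5 or RL14_M 2 only Idh3b was, without RL14_W 1 the count was 7, and without RL14_M 5 it was 5. Calls over all genes fell as well, from 853 to 41, 64, 266 and 72 without RL14_W 3, RL14_W 4, RL14_M 1 and RL14_M 6. They were 955 without RL14_W 5, 362 without RL14_M 2, 861 without RL14_W 1 and 671 without RL14_M 5. Leaving out RL14_ML 1 and 6, which are in neither group, gave 8 calls, and leaving out the libraries high in Alb gave 0. Myh2 was at 3850, 3411, 1292 and 4141 CPM in RL14_M and 2819, 117, 822 and 782 CPM in RL14_W. With Myh2 as a covariate the log2 fold change was 0.42 for Idh3b (adjusted p = 0.171) and 0.39 for Acadl (adjusted p = 0.312), so that neither was called.

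No other comparison between drinks gave a call. RL7_M, RL7_L and RL7_ML against RL7_W gave 0 each, where 0.138%, 0.078% and 0.006% of all genes were called, with 7, 7 and 2 members at an unadjusted p under 0.05, where 13.7%, 9.01% and 9.1% of genes had one. In RL7_M against RL7_W the lowest was Acadl, at 111 ± 9.33 CPM in RL7_M and 179 ± 29.9 CPM in RL7_W (-0.69; adjusted p = 0.264). RL14_L and RL14_ML against RL14_W gave 0 each, where 0.294% and 0.714% of all genes were called, with 3 members each at an unadjusted p under 0.05, where 16.7% and 10.9% of genes had one. Without RL14_ML 1 the count in RL14_ML against RL14_W was 7, but the calls over all genes then rose as well, from 119 to 2500. The combination set against metformin and leucine alone gave 0 calls in all 6 comparisons, where 0.15% and 0.096% of all genes were called in unloading, 0% and 0% at 7 d and 0.024% and 0% at 14 d. The number with an unadjusted p under 0.05 was 5 and 0 in unloading, 3 and 0 at 7 d and 1 and 0 at 14 d. Over all genes, 10.9% and 9.79%, 3.8% and 3.46%, and 9.68% and 7.04% had one. DESeq2 called 0 members in these 11 comparisons. In RL7_ML against RL7_L all 32 log2 fold changes were positive, with a median of 0.19, against 51.8% of all genes.

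Whether the time course depended on the drink was tested directly, with 6 interaction terms. 0 of the 32 genes were called, where 0.93% of all genes were, and 7 had an unadjusted p under 0.05, where 16.4% of genes did. The lowest adjusted p was 0.0606 for Idh3b, followed by 0.101 for Acadl. The different sets called on each drink are therefore not shown to differ between drinks. Without RL14_ML 1 the test called 9 members, without RL14_ML 3 it called 3, without RL14_M 5 it called 2, and without RL14_W 1, RL14_L 2 or RL14_ML 6 it called 1. Over all genes the interaction test called 155 with every library kept, and 2624 without RL14_ML 1. It called 180 without RL14_ML 3, 172 without RL14_M 5, 212 without RL14_L 2, 136 without RL14_W 1 and 138 without RL14_ML 6. A test for any difference among the 13 groups called 19 of the 32 (59.4%), where 40% of all genes were called, with the lowest adjusted p for Cs (4.73e-05), Mdh2 (6.5e-05), Acads (0.00115) and Hadh (0.00162). Idh2, the gene with the widest spread within groups, was not called (adjusted p = 0.4996), and nor was Eci2 (0.618).

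Over the 30 comparisons, members rose 34 times and fell 3 times, in 8 comparisons. Of the 32 genes, 20 were called at least once, Cs and Mdh2 4 times each and Acads 3 times. Of all genes, 29.6% were called in RL7_M against HU_M, 28.6% in RL7_L against HU_L and 11.8% in RL14_M against RL7_M. The share of all genes called at least once was not counted. Some of the 8 comparisons share a group, so these tallies are not counts of separate results. The 12 never called were Pdha1, Pdhb, Idh2, Ogdh, Suclg1, Fh1, Acsl1, Hadha, Hadhb, Acaa2, Eci2 and Decr1, which include the catalytic subunits of pyruvate and oxoglutarate dehydrogenase and both subunits of the trifunctional protein.

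The rest of the pathway moved with these genes in part. Genes outside the 32 were tested only in the fit of all 52 libraries. Whether their calls hold with libraries left out, or with the offset and covariates, was not tested. Of 13 further genes of the cycle and pyruvate entry, 7 rose and 1 fell in RL7_M against HU_M, where 15.4% of all genes were higher and 14.2% lower, and the median log2 fold change was 0.44. Sdhc, Sdhd and Sdhb, subunits of succinate dehydrogenase, rose by 0.64, 0.61 and 0.63 (adjusted p = 0.00479, 0.00835 and 0.0139), and Pcx, which makes oxaloacetate from pyruvate, averaged 63.9 CPM in RL7_M and 31.5 CPM in HU_M (1.02; adjusted p = 0.00354). In RL7_W against HU_W, 2 rose, where 1.97% of all genes were higher. They were Mdh1, the cytosolic malate dehydrogenase (0.73; adjusted p = 0.0361), and Sdhc (0.57; adjusted p = 0.0447). In RL7_L against HU_L, Pcx rose (0.86; adjusted p = 0.0131) and Dld, the subunit shared by pyruvate and oxoglutarate dehydrogenase, fell to 131 CPM in RL7_L, against 199 CPM in HU_L (-0.61; adjusted p = 0.0332). In RL14_M against RL7_M, Dld rose (0.76; adjusted p = 0.0218), Sdha rose (0.49; adjusted p = 0.0155) and Pcx fell (-1.19; adjusted p = 0.00525).

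Of 7 kinases and phosphatases of pyruvate dehydrogenase, Pdk4, the kinase that shuts the enzyme off when fat is burnt, moved furthest. Pdk4 averaged 433 CPM in RL7_M and 1899 CPM in HU_M (-2.13; adjusted p = 0.000378). It also fell in RL7_L against HU_L (-1.54; adjusted p = 0.00613) and in RL7_ML against HU_ML (-1.32; adjusted p = 0.0477), and rose in RL14_M against RL7_M (1.34; adjusted p = 0.0322). In HU_W against AMB_W it was at 0.82 (adjusted p = 0.373). Pdp2, a phosphatase that reverses the kinases, rose in RL7_W against HU_W, at 9.61 CPM in RL7_W and 3.99 CPM in HU_W (1.27; adjusted p = 0.00710). Pdha1, whose product is the target of these enzymes, was called in no comparison, and nor was Pdhb.

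Of 25 further genes of fat uptake and oxidation, 7 rose and 3 fell in RL7_M against HU_M, where 29.6% of all genes were called. Cpt1b, the muscle gate for fatty acids into mitochondria, averaged 14.5 CPM in RL7_M and 7.08 CPM in HU_M (1.04; adjusted p = 0.00423), and rose in RL14_W against HU_W (1.06; adjusted p = 0.0118). Ucp3, a mitochondrial carrier induced by fatty acids, averaged 318 CPM in HU_W and 142 CPM in AMB_W (1.17; adjusted p = 0.0291). It fell on reloading with every drink, to 77.8 CPM in RL7_M, against 297 CPM in HU_M (-1.94; adjusted p = 4.21e-05), to 123 CPM in RL7_L, against 338 CPM in HU_L (-1.46; adjusted p = 0.000889), to 110 CPM in RL7_ML, against 233 CPM in HU_ML (-1.08; adjusted p = 0.0320), and to 134 CPM in RL7_W, against 318 CPM in HU_W (-1.24; adjusted p = 0.0131). In RL14_M against RL7_M, 3 rose and 0 fell, where 5.62% of all genes were higher and 6.2% lower. The 3 were Acot2, an acyl-CoA thioesterase (1.05; adjusted p = 0.0187), Cd36, a fatty acid carrier of the cell surface (0.87; adjusted p = 0.0370), and Lpl, lipoprotein lipase (1.34; adjusted p = 0.0398).

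The 11 regulators split. Nrip1, a corepressor of oxidative genes, averaged 206 CPM in HU_W and 120 CPM in AMB_W (0.77; adjusted p = 0.00413), and fell in RL7_M against HU_M (-1.34; adjusted p = 2.85e-07), RL7_L against HU_L (-1.07; adjusted p = 1.29e-05), RL7_ML against HU_ML (-0.75; adjusted p = 0.00451), RL7_W against HU_W (-1.02; adjusted p = 8.23e-05) and RL14_W against HU_W (-1.17; adjusted p = 9.79e-06). The related coactivators went opposite ways. Ppargc1b averaged 19.6 CPM in RL7_M and 7.34 CPM in HU_M (1.41; adjusted p = 8.18e-05), and rose in RL7_L against HU_L (1.26; adjusted p = 0.000258). Ppargc1a averaged 47.1 CPM in RL7_M and 88.7 CPM in HU_M (-0.91; adjusted p = 0.0157), fell in RL7_L against HU_L (-1.34; adjusted p = 0.000922) and rose in RL14_M against RL7_M (1.23; adjusted p = 0.00887). Esrra, a nuclear receptor that works with both, averaged 24.6 CPM in RL7_M and 11.5 CPM in HU_M (1.10; adjusted p = 0.00523).

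Several measures moved with these results. In RL7_M against HU_M, the log2 fold changes of the 32 genes ran with the GC content of their transcripts, with a Spearman coefficient of 0.707, against 0.527 over all genes, whose median was 0.49 among the genes highest in GC (top 25%) and -0.31 among the lowest. In RL14_M against RL7_M the coefficient was -0.539 for members and -0.553 for all genes. Acads has a GC content of 59.7%, Mdh2 50.9% and Cs 48.2%, while Idh3b has 47.2%, Acadl 45.1% and Sucla2 43.2%. With an offset that takes GC content out, Cs, Mdh2 and Acads stayed called in RL7_M against HU_M, Acads with a log2 fold change of 0.95, against 1.51 without the offset. In the same comparison Etfb (adjusted p = 0.399), Cpt2 (0.149), Acadvl (0.131) and Dlst (0.0542) lost their call. In RL14_M against RL7_M the count under that offset was 4, with Suclg2 at an adjusted p of 0.137, Acadm at 0.0676, Etfa at 0.101 and Etfdh at 0.123. It also ended the calls of Acads in RL7_L against HU_L (log2 fold change 0.48, adjusted p = 0.138) and of Acadl in RL14_M against RL14_W (0.0808). In RL7_W against HU_W, Eci1 and Etfb lost their call (0.0903 and 0.0953), but Suclg1 (0.0453), Acads (0.0480) and Hadhb (0.0467) gained one. The count there was 5 with the offset and 4 without it. Calls were also gained by Suclg1 (0.00485) and Acsl1 (0.0498) in RL7_M against HU_M, and by Dlst (0.0416) in RL7_ML against HU_ML.

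**Figure D5:**
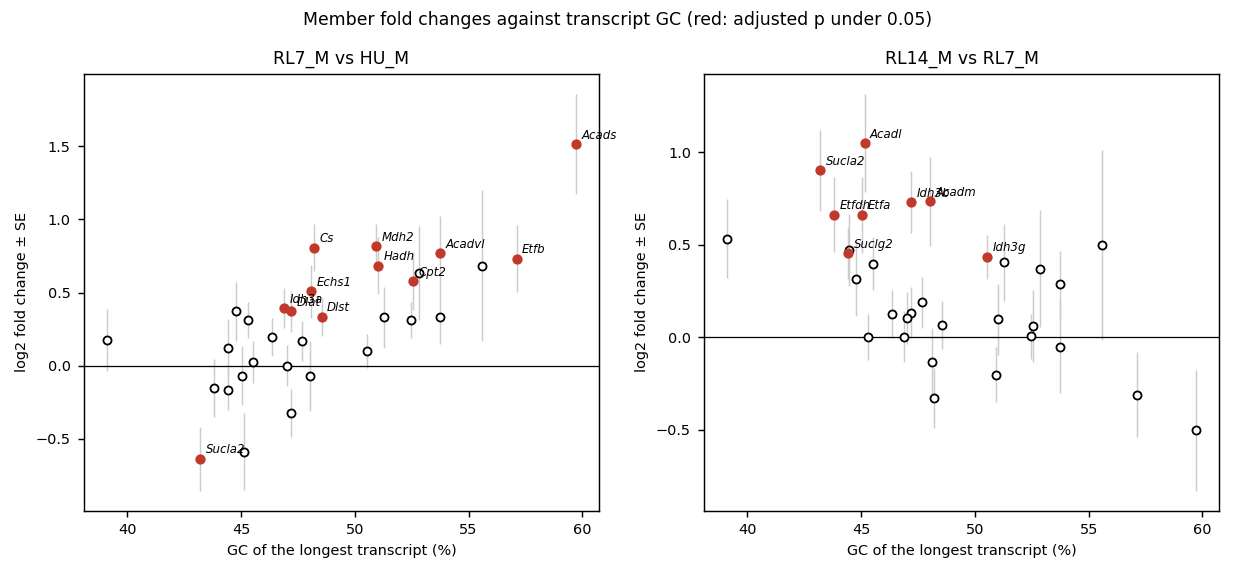
Log2 fold change of the 32 genes against the GC content of the transcript (percent), for RL7_M against HU_M and for RL14_M against RL7_M; each point is a gene. The points climb with GC in the first panel, with a Spearman coefficient of 0.707, and descend in the second, with -0.539.

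Residual 5.8S ribosomal RNA averaged 0.904 CPM in RL7_M (0.379 to 1.63) and 10.9 CPM in HU_M (10.03 to 12.3), and 18.4 CPM in RL14_M. Mitochondrial genes took 7.78% of counts in RL7_M, 15.5% in HU_M and 22.0% in RL14_M, and of the 13 mitochondrially encoded subunits of the respiratory chain 10 fell in RL7_M against HU_M, 11 fell in RL7_L against HU_L and 13 rose in RL14_M against RL7_M. Of all genes, 14.2%, 13.9% and 5.62% did so in these 3 comparisons. With the 5.8S level as a covariate, calls remained only in RL7_W against HU_W, where there were 3, and 0 were left in the other 7 comparisons. In RL7_M against HU_M, Hadh then stood at 0.76, Etfb at 1.05, Acadvl at 0.88, Mdh2 at 0.59 and Cs at 0.47, with adjusted p between 0.302 and 0.532. In RL7_L against HU_L, Cs stood at 0.14, and in RL14_M against RL14_W, Idh3b stood at 0.02, with adjusted p of 0.968 and 1.00. The 5.8S ranges of the groups compared overlapped in RL7_ML against HU_ML and in none of the other 7 comparisons with a called member, so in those 7 the group and this measure cannot be told apart. In RL7_L, for example, 5.8S RNA ran from 0.533 to 1.14 CPM, against 14.3 to 32.8 CPM in HU_L. Of 9 adipocyte markers, 8 rose in RL7_M against HU_M and 4 in RL7_L against HU_L, where 15.4% and 14.7% of all genes were higher. Their mean log2 CPM ran from 1.74 to 5.89 in RL7_M and from 1.03 to 2.14 in HU_M, with the highest value in RL7_M 4, and from 1.67 to 3.95 in RL7_L and 0.63 to 2.46 in HU_L. Cidec and Lep were at 0 in their lowest library of the series, and Adipoq and Plin1 were above 0 in every library. Without RL7_M 4, Cs, Mdh2 and Acads stayed called. Of 6 endothelial markers, 5 rose in RL7_M against HU_M and 3 in RL7_W against HU_W, where 15.4% and 1.97% of all genes were higher. Of 5 fibroblast markers, 2 rose and 1 fell in RL7_M against HU_M, where 15.4% of all genes were higher and 14.2% lower. In RL7_L against HU_L 4 of these markers rose, where 14.7% of all genes were higher. Their mean log2 CPM ran from 5.46 to 6.30 in RL7_M and from 4.60 to 4.97 in HU_M, and from 5.55 to 6.44 in RL7_L and from 4.197 to 5.46 in HU_L, without overlap. The part of these measures in the results beyond these values was not tested.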

How the data were processed

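The authors deposited a table of raw counts per Ensembl gene, in whole numbers and with no normalization, with a column for each of the 52 libraries, and 0 columns of values were left unmapped. Per the submitters' processing notes, the tools included STAR 2.7.3a, featureCounts 1.6.3 and DESeq2 1.30.0 with build GRCm38, and per the labels' protocols the libraries were stranded and depleted of ribosomal RNA. The strand setting and annotation release are not given in the sources used here. Symbols and positions came from GENCODE M21 (GRCm38), which held 55227 of the 55487 identifiers.

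From the counts, genes passing filterByExpr (minimum count 10) were fitted with edgeR 4.0.16 in R 4.3.3: TMM scaling and robust quasi-likelihood tests in 1 model of the 13 groups, with 39 residual degrees of freedom and a common dispersion of 0.0450. 30 comparisons and 2 joint F tests were made on 16668 genes, adjusted by Benjamini-Hochberg within each. Median SEs ran from 0.225 to 0.231 on the log2 scale, and the steps were tested on simulated data. No library was a copy of another: over 78 pairs of replicates, chi-square divided by its degrees of freedom was at least 6.82. Permutation tests used numpy 2.4.6, with ranks from scipy 1.17.1. GC content is that of the longest transcript.

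Alternatives were RLE factors, no filter, DESeq2 1.42.0, only the 2 groups compared, a replicate block, leaving out libraries, and, chosen after seeing the data, a GC offset and covariates for 5.8S RNA and Myh2. All 32 genes could be named, with values where they were called or at the ends of a comparison. Of other lists, called genes were named by smallest p, at most 4 a list and comparison, plus 6 regulators and gates such as Pdk4 and Cpt1b; some that this allows are left out for room. The members and lists were chosen with earlier results of these data known. Promoters are from RefSeq, which matched 29 of the 32 genes (Idh3a, Acaa2 and Decr1 did not match).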

Additional observations from a re-analysis of the deposited data

Results flagged for a closer look

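In 84 groups of 4 libraries, 4 held a library whose gap to its neighbour, as a share of the group's range, was above Dixon's 95% critical value. Chance alone gives about 1 in 20 such groups. In RL14_W 1 the mean log2 CPM of the 32 genes was 6.83, above the other water libraries at 14 d (ratio 0.866), and Acadl was at 184 CPM in the same library (ratio 0.880). Without that library, as without HU_W 2, Cs and Mdh2 were not called in RL14_W against HU_W. Dlst was at 193 CPM in RL7_W 2 (ratio 0.854), and its call in RL7_W against HU_W was lost without it. Idh3a was at 181 CPM in RL7_M 4, below the rest of its group (ratio 0.893), and its call in RL7_M against HU_M held without that library.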

How the results depend on the processing

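Counts of called members moved as follows, with each comparison written as tested / reference. DESeq2 gave 10 in RL7_W/HU_W, 6 in RL14_M/RL14_W, 4 in RL7_ML/HU_ML and 3 in RL14_L/RL7_L. Without the filter these were 1 in RL7_W/HU_W and RL14_M/RL14_W, 0 in RL7_ML/HU_ML and RL14_L/RL7_L, 4 in RL14_M/RL7_M and 1 for the interaction. Fits of only the 2 groups gave 4 in HU_W/AMB_W and RL14_W/AMB_W, 1 in RL7_W/AMB_W, RL14_W/RL7_W, RL7_ML/RL7_W, HU_M/AMB_W, HU_L/AMB_W and HU_ML/AMB_W, 2 in RL14_L/RL14_W, 18 in RL7_W/HU_W, 10 in RL7_L/HU_L and 8 in RL7_ML/HU_ML. Without the libraries high in Alb there were 0 in RL7_W/HU_W, RL14_M/RL14_W, RL7_L/HU_L, RL7_ML/HU_ML and RL14_L/RL7_L, 2 in RL14_M/RL7_M and 5 for any difference. Without RL14_ML 1 and 6 there were 2 in RL14_W/AMB_W and RL14_L/RL14_W, 9 in RL7_W/HU_W, 3 in RL7_M/RL7_W and RL14_ML/RL7_ML, 8 in RL14_M/RL14_W and RL7_L/HU_L, 4 in RL14_ML/RL14_W and RL7_ML/HU_ML, 5 in RL14_L/RL7_L and 7 for the interaction. The replicate numbers did not pair the libraries (0 of 21 comparisons with every same-number correlation over 0.1), and a replicate block gave 8 in RL7_W/HU_W, 0 in RL14_M/RL14_W (adjusted p = 0.0584 for Idh3b and 0.0664 for Acadl), 3 in HU_M/AMB_W and 4 in RL14_M/RL7_M. The GC offset gave 1 in RL14_M/RL14_W and 4 in RL14_M/RL7_M. The Myh2 covariate gave 10 in RL14_W/HU_W, 0 in RL14_M/RL14_W and RL14_L/RL7_L, 11 in RL7_L/HU_L and 4 in RL7_ML/HU_ML. The 5.8S covariate gave 0 in RL14_W/HU_W, RL14_M/RL14_W, RL7_M/HU_M, RL7_L/HU_L, RL7_ML/HU_ML, RL14_M/RL7_M and RL14_L/RL7_L and 9 for any difference, and turned Acadl in RL14_M/RL14_W (-0.00357), Idh3b in RL7_L/HU_L (0.0296) and Etfdh in RL14_M/RL7_M (-0.0665), none of them called. Leaving out 1 library at a time gave 0 to 8 in RL7_W/HU_W, 0 to 3 in RL14_W/HU_W, 0 to 7 in RL14_M/RL14_W, RL14_ML/RL14_W and RL14_ML/RL7_ML, 0 to 1 in HU_M/AMB_W, 5 to 14 in RL7_M/HU_M, 2 to 6 in RL7_L/HU_L, 0 to 3 in RL7_ML/HU_ML and RL14_L/RL7_L, 2 to 11 in RL14_M/RL7_M, 0 to 9 for the interaction and 16 to 26 for any difference. The cause of these moves was not tested, beyond the fewer libraries and genes that some settings leave. In the fits above that left out 1 library and give calls over all genes, those calls moved as well. They grew where RL14_ML 1 was left out. For the other settings, here and above, calls over all genes are not given. The changed counts under those settings are therefore not shown to be particular to the members. The GC offset and both covariates were chosen after seeing the data. Depth and 4 libraries a group limit what is detectable: a log2 difference of the size of the median SE, 0.225 to 0.231, is within the error of these comparisons.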
